A study of Mus musculus with 8 samples.

Results

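The TGF-beta and BMP pathway was followed through 45 genes, among 18193 genes that a probe set of the array names by a single symbol. The genes were chosen from a list by symbol, and the probe set with the highest mean over the 8 arrays stood for each gene. They comprised 13 genes of the TGF-beta branch, 8 of the activin branch, 21 of the BMP branch and 3 shared by the branches. All 45 had a probe set, and 39 of them passed the filter on low levels that left 10916 genes for testing.

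The TGF-beta family signals through secreted ligands, pairs of type I and type II receptor kinases, and Smad proteins that carry the signal into the nucleus. TGF-beta and activin receptors act on Smad2 and Smad3, BMP receptors act on Smad1, Smad5 and Smad9, and Smad4 partners both sets. In the fetal liver, TGF-beta and activin favour the bile duct fate of hepatoblasts, the precursors of hepatocytes and bile duct cells. BMPs support growth of the liver bud, and in hepatocytes they drive the iron hormone hepcidin.

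The study introduced Bmi1, a Polycomb repressor, into cells that have lost the Ink4a-Arf locus, a well-known target of Bmi1. All 8 arrays hold RNA from Dlk-positive liver cells of Ink4a-Arf-null mouse embryos of day 14.5, enriched on magnetic beads, transduced 12 to 18 h later and cultured with 50 ng/ml HGF and 20 ng/ml EGF. The 4 control arrays are from cells given EGFP and the 4 arrays labelled Bmi1 from cells given Bmi1, both purified by flow cytometry at day 28 of culture, from 4 independent experiments per the series. RNA equal to 10000 cells was amplified in 2 cycles, both groups lack Ink4a-Arf, and no group with an intact locus was compared. Signal for Bmi1, the introduced gene, went against the labels, being lower on the array labelled Bmi1 in 4 of 4 pairs. It read 802, 395, 568 and 306 on controls 1 to 4 and 318, 273, 328 and 197 on Bmi1 arrays 1 to 4, a log2 difference of -0.89 (SE 0.32, adjusted p in limma 0.465, 0.0252 with the replicate block). The second Bmi1 probe set was lower in mean as well, by a log2 difference of -0.96. The positions of these probe sets in the transcript were not analysed here, and a probe set outside the introduced sequence would read the cells' own Bmi1 only. Cdkn2a, of the deleted locus, was above background on 1 of 8 arrays, and its neighbour Cdkn2b read 914 ± 192 and 1079 ± 379 (SD, n = 4 each). Since this check went against the labels, each direction below is that of the arrays labelled Bmi1, called Bmi1 arrays for short, and not of a measured rise in Bmi1.

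The arrays carried the markers of their labelled cell type, since all 8 hepatoblast and hepatocyte markers were above background on all 8 arrays. Their summed signal was 18599 to 19936 on the arrays numbered 1 and 2 and 28635 to 29829 on those numbered 3 and 4. Of 15 stellate cell and fibroblast markers, 10 were above background on all arrays and Lrat on none. Of their sum, Vim held most on the arrays numbered 3 and 4. The sum was 5549 to 17369 on control arrays and 4032 to 9336 on arrays labelled Bmi1, highest on control 1. That array also had a Gapdh 3' to 5' signal ratio of 3.10, against 1.65 to 1.96 on the other arrays. Sums of the mesothelial markers were 677 to 866 and 905 to 946 in the control and Bmi1 groups, with 3 of 6 markers above background throughout. Krt19, also a gene of bile duct cells, made up most of the sum on Bmi1 arrays, at 753, 821, 804 and 864 against 305, 645, 539 and 697 on controls. Of 4 tested mesothelial markers 3 were lower in mean, with a median log2 difference of -0.53, and Msln, at -1.25, was called with the block (limma adjusted p 0.0493). Sums of the endothelial markers were 119 to 238 and 244 to 352, with Pecam1 and Tek at background on all arrays. Egfl7, the 1 endothelial marker of 8 that was tested, held most of that sum on each array, at 68.6, 111, 128 and 194 on controls and 192, 199, 289 and 314 on Bmi1 arrays, and was called higher with the block (limma adjusted p 0.0207). Macrophage sums were 533 to 2798 and 668 to 2477, with 5 of 8 markers above background throughout and C1qa and Cd163 at background. Cd14 alone read 2425 on control 4 and 1960 on Bmi1 4, the arrays with the highest of these sums. Erythroid sums were 48.03 to 96.5 and 75.6 to 112. Of 6 erythroid markers with a probe set, 3 were above background throughout, and Hbb-y and Alas2 were at background. The arrays numbered 1 and 2 stood apart from those numbered 3 and 4 also in the hybridisation control BioC, at 198 to 274 and 97.0 to 119.

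No member passed the test between groups, either without a block (0 of 39, against 0.165% of all tested genes) or with the replicate number as a block (0 of 39, against 3.32%). The test was limma, two-sided, with Benjamini-Hochberg adjustment over all tested genes and a threshold of 0.05. Of 39 members, 1 had an unadjusted p under 0.05 without a block and 8 with it. Of all 10916 tested genes, 852 and 1968 did. The group mean was higher on Bmi1 arrays for 23 members and lower for 16, and the median log2 difference was 0.04, beside -0.03 for all tested genes. Leaving out control 1 moved the median of the members to 0.19. Centring the arrays on all probe sets took the median of all tested genes to 0.11 and gave 29 members higher and 10 lower, with a median of 0.17.

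Direction within the numbered pairs gives the finer picture. Here and below, the direction in a pair is that of the log2 values centred on the tested genes, unless another setting is named. Higher signal in the Bmi1 array of 4 of 4 pairs was found for 8 of 39 members (20.5%, against 11.4% of all tested genes): Tgfb1, Inhbb, Acvr1b, Bmp7, Bmpr1a, Smad6, Id1 and Bambi. Lower centred values in 4 of 4 pairs were found for 3 members (7.69%, against 15.8%): Tgfbr1, Ltbp3 and Bmp1. Without centring, only Ltbp3 was lower in 4 of 4 pairs, as were 10.5% of all tested genes. In that setting 10 members were higher in 4 of 4 pairs (25.6%, against 17.0%), among them the 8 above. The groups did not overlap for 1 member, Inhbb (2.56%, against 5.33%). With the arrays centred on all probe sets, 10 members were higher in 4 of 4 pairs (25.6%, against 16.5%), among them 7 of the 8 above, all but Bmpr1a, and none was lower in 4 of 4. By branch, the median log2 difference was -0.06 for TGF-beta, 0.24 for activin, 0.12 for BMP and -0.07 for the shared genes.

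**Figure D1:**
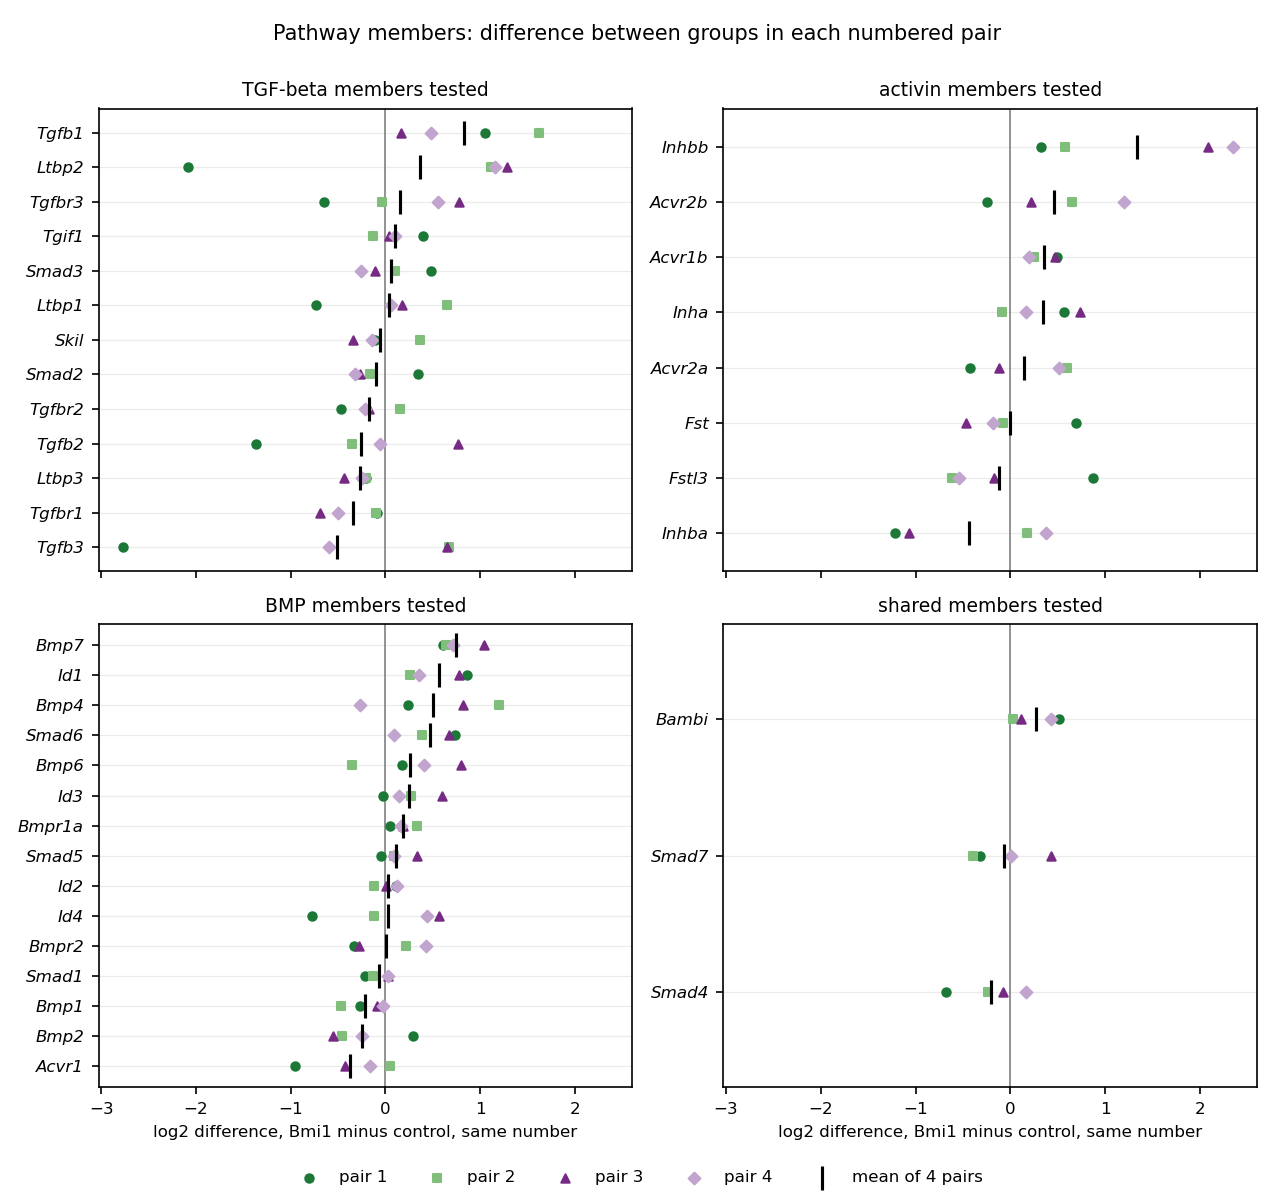
Log2 difference of each tested member in the 4 pairs of arrays of the same number, by branch, with no difference at the vertical line. Points are single pairs and black bars their mean; Inhbb has the highest mean, 1.33, and 4 pairs above 0, while Tgfb3 and Ltbp2 have pair 1 far below the other pairs.

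Promoters are shown for 4 of the members with a higher signal in 4 of 4 pairs, as sequence context for the genes the description turns on. They are RefSeq sequence of build GRCm38.p6, 5' to 3' on the strand of the gene, from 250 bases before to 30 after the annotated start. Capitals mark letters of known Smad binding motifs, searched on both strands of the 300 bases from 250 before to 50 after: CAGAC (reverse complement GTCTG), the palindrome GGCGCC, and the palindrome GTCTAGAC, which was added after the Smad6 sequence had been seen. Smad6 lies on the minus strand at chr9:64022030-64022309, Inhbb on the minus strand at chr1:119422219-119422498, Acvr1b on the plus strand at chr15:101173822-101174101 and Bmpr1a on the minus strand at chr14:34502517-34502796.
Smad6: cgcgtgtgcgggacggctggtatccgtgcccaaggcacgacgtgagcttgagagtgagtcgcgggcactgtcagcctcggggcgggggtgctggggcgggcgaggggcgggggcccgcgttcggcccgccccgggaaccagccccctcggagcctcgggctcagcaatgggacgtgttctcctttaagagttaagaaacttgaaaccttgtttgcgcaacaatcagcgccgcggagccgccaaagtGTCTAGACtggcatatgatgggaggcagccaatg
Inhbb: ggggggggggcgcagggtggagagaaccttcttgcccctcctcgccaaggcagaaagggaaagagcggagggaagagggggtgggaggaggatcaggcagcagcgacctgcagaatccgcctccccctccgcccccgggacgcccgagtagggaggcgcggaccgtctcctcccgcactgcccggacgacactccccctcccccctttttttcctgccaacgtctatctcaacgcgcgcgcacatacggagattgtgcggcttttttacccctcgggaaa
Acvr1b: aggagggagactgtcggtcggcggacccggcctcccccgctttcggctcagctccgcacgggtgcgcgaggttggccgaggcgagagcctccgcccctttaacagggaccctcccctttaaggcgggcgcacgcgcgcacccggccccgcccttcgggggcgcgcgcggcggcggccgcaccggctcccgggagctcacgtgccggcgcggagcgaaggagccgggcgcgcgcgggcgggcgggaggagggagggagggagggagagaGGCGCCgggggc
Bmpr1a: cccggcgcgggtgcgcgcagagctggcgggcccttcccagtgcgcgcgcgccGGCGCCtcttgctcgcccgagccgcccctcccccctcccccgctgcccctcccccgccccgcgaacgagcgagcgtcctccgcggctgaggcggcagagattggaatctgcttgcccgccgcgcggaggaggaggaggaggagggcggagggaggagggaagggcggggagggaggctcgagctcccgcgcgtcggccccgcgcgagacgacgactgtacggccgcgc

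Smad6 carries GTCTAGAC across its annotated start, beginning 4 bases before it. That motif is in 70 of 32851 RefSeq mouse promoters of this length (0.213%) and in 1 of the 42 promoters of members. GGCGCC lies 18 bases after the start of Acvr1b and 198 bases before that of Bmpr1a. It is in 11.9% of all promoters and in 11 of 42 promoters of members (26.2%). These 42 promoters are of 32 genes, so some genes count more than once. GC content was not compared between the promoters of members and all promoters. CAGAC or GTCTG is in 49.6% of all promoters and in 22 of 42 of members (52.4%), and in none of the 4 shown. The Inhbb window held none of the 3 motifs. RefSeq promoters matched 32 of the 45 members. Of the members higher in 4 of 4 pairs, Bmp7, Id1 and Bambi had none, and the promoter of Tgfb1 is not shown.

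The activin branch held the member with the largest difference. Inhbb, the beta B subunit that forms activin B, read 111, 96.7, 54.4 and 37.8 on controls 1 to 4 and 149.5, 156, 258 and 212 on Bmi1 arrays 1 to 4. Every Bmi1 array was above every control. The group means were 75.04 ± 34.6 and 194 ± 51.3 (SD, n = 4 each). That is a log2 difference of 1.33 (SE 0.35, 95% interval 0.54 to 2.13) with a limma adjusted p of 0.235, and 0.0866 with the replicate block. The difference was called with the block under 2 other settings, centring on all probe sets (adjusted p 0.0132) and array weights (0.0408). It was 0.45 within numbers 1 and 2 and 2.22 within numbers 3 and 4, where the controls were lower and the Bmi1 arrays higher. The interaction of number and group was 1.76 on the log2 scale, with a limma p of 0.000907 unadjusted and 0.999 adjusted. Of all 10916 tested genes, 0 were called for this interaction, so these values were not shown to differ after adjustment. The second Inhbb probe set read 13.6, 37.4, 28.5 and 4.44 on controls and 38.1, 34.97, 31.6 and 53.5 on Bmi1 arrays, with a log2 difference of 0.97, and control 2 lay above Bmi1 2 and Bmi1 3 there.

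Among the other activin ligand subunits, Inha, the inhibin alpha subunit, read 26.8, 45.8, 38.3 and 58.8 on controls and 44.5, 45.5, 70.7 and 68.01 on Bmi1 arrays. Its log2 difference was 0.35 (SE 0.25, adjusted p in limma 0.907), higher in 3 of 4 pairs. Inhba, the beta A subunit of activin A, read 597, 207, 98.01 and 45.1 on controls and 272, 248, 47.6 and 60.8 on Bmi1 arrays, with the arrays numbered 1 and 2 above those numbered 3 and 4 in both groups.

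Of the activin receptors, Acvr1b, the type I receptor ALK4, read 228, 257, 212 and 346 on controls and 344, 325, 313 and 404 on Bmi1 arrays. It was higher in each pair by 0.19 to 0.49 on the log2 scale, with overlapping groups. The mean log2 difference was 0.35 (SE 0.18, 95% interval -0.05 to 0.75, adjusted p in limma 0.752, 0.163 with the block), and it was 0.37 and 0.33 within the lower and the higher numbers. The type II receptors Acvr2a and Acvr2b had log2 differences of 0.14 and 0.46, higher in 2 and in 3 of 4 pairs. Fst and Fstl3, secreted proteins that bind and block activin, had -0.01 and -0.11, which turned positive with centring on all probe sets, each higher in 1 of 4 pairs.

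**Figure D2:**
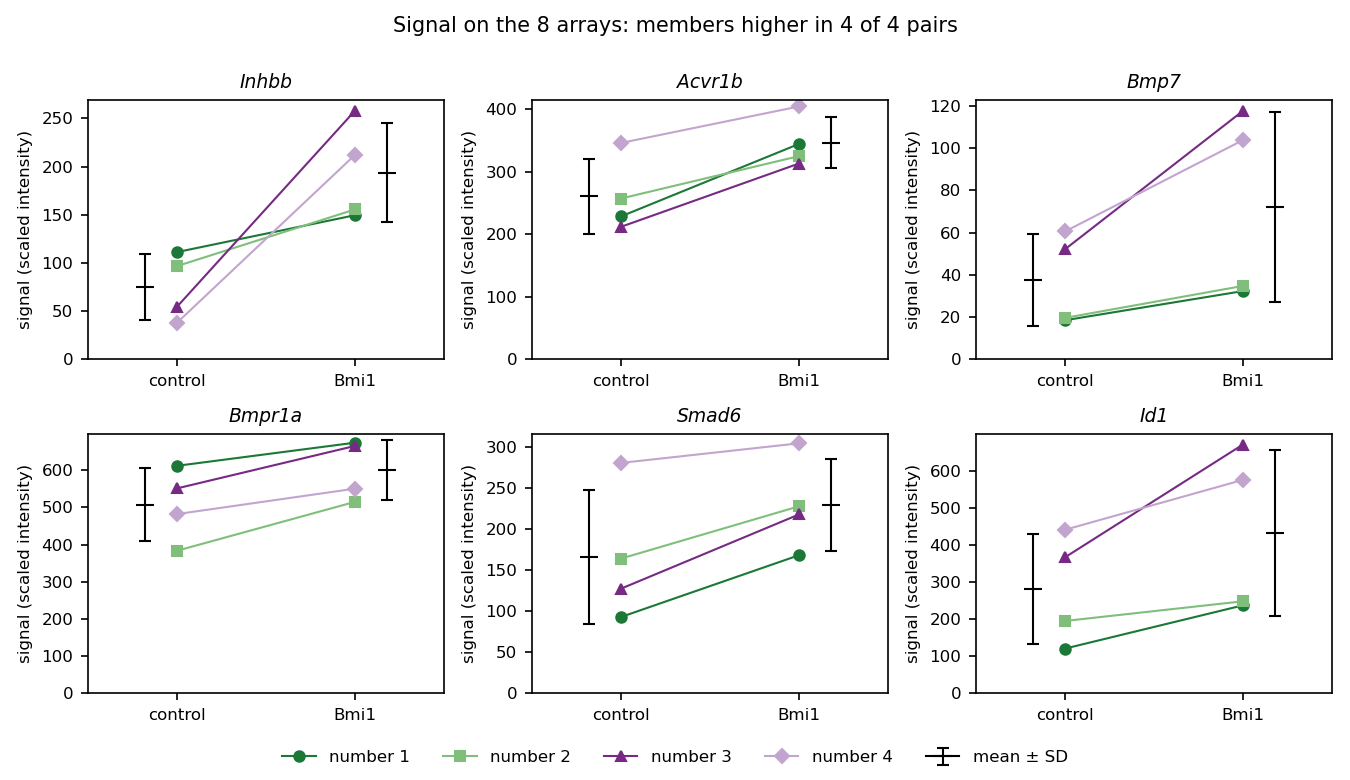
Signal (scaled intensity, linear axis from 0) of 6 members on the 8 arrays, with lines joining arrays of the same number and bars for the group mean ± SD (n = 4). The Bmi1 end of each line is the higher one, and of these 6 genes Inhbb alone has all 4 Bmi1 arrays above all 4 controls.

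BMP ligands had differing patterns. Bmp7, a BMP ligand, read 18.5, 19.6, 52.1 and 60.5 on controls and 32.3, 34.7, 118 and 104 on Bmi1 arrays. Signal was higher in each Bmi1 array than in its partner, and arrays numbered 3 and 4 were higher than those numbered 1 and 2 in both groups. The log2 difference between groups was 0.75 (SE 0.49, adjusted p in limma 0.862), and the adjusted p with the replicate block, 0.0717, was the lowest of any member. Another Bmp7 probe set read 6.42, 17.8, 39.8 and 27.7 on controls and 31.3, 17.2, 82.7 and 45.7 on Bmi1 arrays. Control 2 lay above Bmi1 2 there, so the same direction in every pair held for the chosen probe set only. In limma over single probe sets, the other one had a log2 difference of 0.79. Its block adjusted p was 0.247, against 0.0716 for the chosen one. Centring on all probe sets gave 3 calls among members with the block, Inhbb, Bmp7 and Id1.

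Bmp4, which acts early in liver growth, read 56.8, 37.2, 77.02 and 122 on controls and 72.4, 96.01, 148 and 103 on Bmi1 arrays. Its log2 difference was 0.50 (SE 0.32, adjusted p in limma 0.862), with pair 4 in the other direction. Bmp6, an inducer of hepcidin, ran from 39.5 to 87.7 over the 8 arrays, with a difference of 0.26. Bmp2 ran from 9.46 to 93.7, with a difference of -0.24. Bmp1, despite its name, is a protease that cleaves procollagen and the BMP antagonist chordin. It was lower in 4 of 4 pairs after centring on the tested genes, with a difference of -0.21. Bmp5 was above background on 2 of 8 arrays.

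Of the BMP receptors, Acvr1, the type I receptor ALK2, had the smallest p of the branch without a block. It read 458, 253, 405 and 319 on controls and 251, 277, 318 and 291 on Bmi1 arrays, with a log2 difference of -0.38 (SE 0.20, adjusted p in limma 0.784). Control 1 was the highest array and pair 2 went the other way. Bmpr1a, the type I receptor ALK3, read 612, 383, 551 and 482 on controls and 674, 515, 665 and 550.4 on Bmi1 arrays, a difference of 0.18 (SE 0.19, adjusted p in limma 0.947). Of its 5 probe sets above background on all 8 arrays, 3 had a higher mean on Bmi1 arrays and 2 a lower one, from -0.11 to 0.20. The type II receptor Bmpr2 had a difference of 0.01, and Bmpr1b was above background on 3 of 8 arrays.

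Neither tested BMP Smad was called, with log2 differences of -0.07 for Smad1 (0.06 with centring on all probe sets) and 0.12 for Smad5, whose 95% intervals were -0.56 to 0.42 and -0.24 to 0.48. Smad9 was below the filter, with signals from 9.02 to 17.5. Smad6, the inhibitory Smad of the BMP branch and the gene with GTCTAGAC at its start, read 93.1, 164, 128 and 281 on controls and 168, 228, 218 and 305 on Bmi1 arrays. Each Bmi1 array was above its partner, by 0.09 to 0.74 on the log2 scale, and the groups overlapped. The mean difference was 0.47 (SE 0.30, 95% interval -0.21 to 1.14, adjusted p in limma 0.858, 0.149 with the block). The secreted BMP antagonists Nog, Grem1 and Chrd did not pass the filter and were above background on 2, 7 and 7 of 8 arrays.

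The Id genes, inhibitors of bHLH transcription factors that BMP signals induce, had mean log2 differences above 0, also under the other centrings and quantile normalisation, but without a block the sign turned for Id2 in 3 of 18 other settings and for Id4 in 6 of 17. Id1 read 121, 195, 367 and 441 on controls and 237, 248, 671 and 576 on Bmi1 arrays. It was higher in 4 of 4 pairs and, like Bmp7, higher on numbers 3 and 4 than on numbers 1 and 2. The log2 difference was 0.56 (SE 0.44, adjusted p in limma 0.917, 0.0797 with the block), and it was 0.56 and 0.57 within the lower and the higher numbers. Id2, Id3 and Id4 had differences of 0.03, 0.25 and 0.03, higher in 3, 3 and 2 of 4 pairs. The other probe sets of Id2 gave 0.44 and 0.37, and those of Id4 gave 0.26 and -0.61. On the linear scale the mean of Id4 was lower on Bmi1 arrays, 30.9 ± 22.96 on controls and 29.2 ± 8.398 (SD, n = 4 each).

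In the TGF-beta branch, Tgfb1 had the smallest p of the 13 members without a block. This ligand read 14.1, 2.93, 48.7 and 47.4 on controls and 35.9, 18.1, 58.8 and 68.9 on Bmi1 arrays, and control 2 was below background. Each Bmi1 array was above its partner, and the difference was 0.83 on the log2 scale (SE 0.65, adjusted p in limma 0.917, 0.18 with the block). It was 1.34 within the low signals of numbers 1 and 2 and 0.32 within numbers 3 and 4. Tgfb2 had a difference of -0.25. Tgfb3 read 529, 67.1, 41.1 and 78.2 on controls and 79.5, 116, 70.99 and 51.4 on Bmi1 arrays, so its difference of -0.51, the lowest of any member, came with a control 1 far above the other arrays.

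Tgfbr1, the type I receptor ALK5, read 1809.9, 1627, 960.1 and 968 on controls and 1815, 1612, 628 and 695 on Bmi1 arrays. After centring on the tested genes, the log2 difference was -0.09 within numbers 1 and 2 and -0.60 within numbers 3 and 4. Over all pairs the difference was -0.35 (SE 0.41, adjusted p in limma 0.959, 0.202 with the block), and it turned to 0.12 with array weights. The type II receptor Tgfbr2 and the coreceptor Tgfbr3 had differences of -0.18 and 0.16, and the signal Smads Smad2 and Smad3 -0.10 (0.03 with centring on all probe sets) and 0.06.

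Latent TGF-beta binding proteins hold the ligand in the matrix. Ltbp3 read 2156, 1838, 1281 and 1376 on controls and 1994, 1688, 1005 and 1185 on Bmi1 arrays, lower in each of the 4 pairs. Its log2 difference was -0.27 (SE 0.28, adjusted p in limma 0.947, 0.146 with the block), and it turned to 0.04 with array weights. Other probe sets of Ltbp3 gave -0.08, 0.13 and -0.09. The brightest of these was higher on Bmi1 1 than on control 1, at 653 and 456. Ltbp1 and Ltbp2 had differences of 0.04 and 0.37, and the nuclear corepressors Skil and Tgif1 -0.06 (0.07 with centring on all probe sets) and 0.10. The signal of Ltbp2 was at or below background on controls 3 and 4.

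Of the shared members, Smad4 read 1447, 1144, 807 and 667 on controls and 966, 1027, 811 and 764 on Bmi1 arrays, a log2 difference of -0.21 (SE 0.27, adjusted p in limma 0.964) that turned to 0.08 with array weights. Other probe sets of Smad4 gave 0.13 and -0.13. Smad7, the inhibitory Smad that acts on both branches, read 364, 388, 176 and 253 on controls and 311, 311, 254 and 258 on Bmi1 arrays. Its difference of -0.07 (SE 0.27, adjusted p in limma 0.986) changed sign under several settings. Bambi, a receptor decoy without a kinase, read 146, 184, 344 and 193 on controls and 226, 199, 393 and 266 on Bmi1 arrays, higher in each pair. The difference was 0.27 (SE 0.27, adjusted p in limma 0.947), and -0.07 with array weights.

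More members were called between the numbers of the arrays than between the groups. The fit between numbers treated arrays of the same number as independent, although the numbers were taken to pair them. It sets numbers 1 and 2 against numbers 3 and 4 only, so its p-values may be too small. Between numbers 3 and 4 and numbers 1 and 2, with group in the model, 16 of 39 members were called (41.0%, against 24.5% of all tested genes). They were 8 of 13 TGF-beta members, 1 of 8 activin members, 5 of 15 tested BMP members and 2 of 3 shared members. Signal was higher on numbers 1 and 2 for 12 of them, Tgfb2, Tgfbr1, Ltbp1, Ltbp2, Ltbp3, Skil, Inhba, Bmp2, Bmpr2, Smad1, Smad4 and Smad7. It was higher on numbers 3 and 4 for Tgfb1, Tgfbr2, Bmp7 and Id1. Which genes these were depended on the scale: centring the arrays on all probe sets called 20 members, 5 of them higher on numbers 1 and 2, and 51.4% of all genes.

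The receptors of TGF-beta went in opposite directions between the numbers. Tgfbr1 was 1716 ± 111 on the 4 arrays numbered 1 and 2 and 813 ± 177 on the 4 numbered 3 and 4 (SD). Each SD is over arrays, with a control and a Bmi1 array of each number, and not over independent experiments. The log2 difference of Tgfbr1 was -1.20 (limma adjusted p 0.00175). Tgfbr2 was 455 ± 58.5 and 889 ± 67.1, a difference of 0.87 (limma adjusted p 0.0036). Both kept these calls when the arrays were centred on all probe sets. The ligands split in the same way: Inhba and Bmp2 had differences of -2.36 and -2.05, and Tgfb1 and Bmp7 of 1.62 and 1.41. In every sample of the lower numbers Inhba, Bmp2 and Tgfbr1 were above all samples of the higher numbers, and Tgfb1, Bmp7, Id1 and Tgfbr2 were below them. Stellate cell and fibroblast marker sums were 5231 to 17369 on numbers 1 and 2 and 4032 to 6705 on numbers 3 and 4, and hepatoblast sums went the other way. Vim alone held most of the stellate and fibroblast sum on numbers 3 and 4. It read 3550 and 3020 on controls 3 and 4 and 4048 and 2571 on Bmi1 3 and 4. The part of the stellate and hepatoblast markers in these results was not tested. In RNA from pools of sorted cells, fewer cells of a type and less RNA per cell cannot be told apart.

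**Figure D3:**
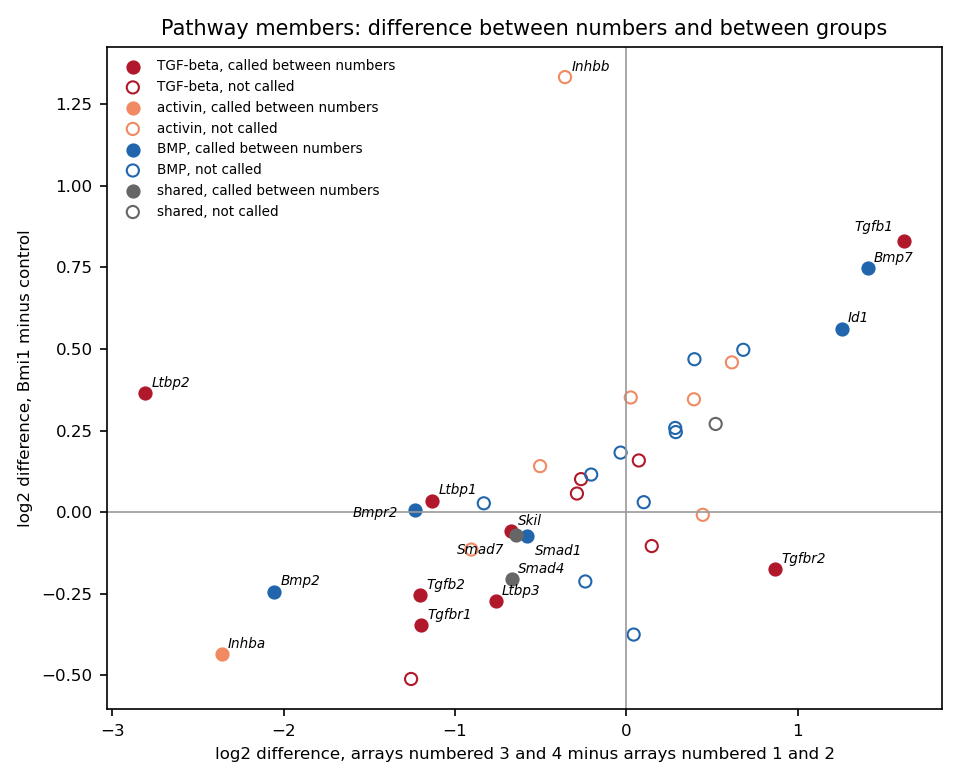
Log2 difference between arrays numbered 3 and 4 and arrays numbered 1 and 2 (horizontal) against the log2 difference between groups (vertical) for the 39 tested members, coloured by branch. Filled points, 16 of 39, were called between the numbers in limma, and the values run from -2.81 to 1.62 along the horizontal axis and from -0.51 to 1.33 along the vertical one.

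Beyond the members, 107 other genes of the pathway were listed, of which 97 had a probe set and 61 were tested. None was called without a block, and 9 of 61 had an unadjusted p under 0.05, against 852 of all 10916 tested genes. With the replicate block 4 of 61 were called in limma, 1 higher and 3 lower. Of all tested genes 3.32% were called with it, 149 higher and 213 lower (277 and 197 with centring on all probe sets). Of the 61, 13 had a higher mean on Bmi1 arrays and 48 a lower one (21 and 40 with centring on all probe sets). Their median log2 difference was -0.25. Without control 1, 38 were lower and the median was -0.10, and with array weights 29 of 61 were lower and the median turned to 0.04. By list, other ligands had 2 higher and 2 lower, other receptors and coreceptors 1 and 3, secreted antagonists and BMP modulators 2 and 3, TGF-beta latency and activation 1 and 7, and Smad regulators 3 and 12. Their medians were 0.02, -0.23, -0.45, -0.55 and -0.09 in that order, and -0.06, 0.06, -0.09, -0.07 and -0.07 without control 1.

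Ltbp4, a latent TGF-beta binding protein, had the smallest p of the other pathway genes without a block. It read 44.5, 41.7, 33.2 and 35.4 on controls and 96.6, 90.8, 101 and 111 on Bmi1 arrays, with no overlap. The means were 38.7 ± 5.295 and 99.98 ± 8.65 (SD, n = 4 each). That is a log2 difference of 1.22 (SE 0.19, 95% interval 0.79 to 1.65), with a limma adjusted p of 0.0532 and 0.0165 with the block. Without a block it was called under 6 of 17 other settings. With the block, leaving out Bmi1 2, control 3, control 4, Bmi1 3 or Bmi1 4 took the adjusted p to 0.0506 to 0.0734.

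Hjv, hemojuvelin, the BMP coreceptor by which hepatocytes set hepcidin, was lower on the arrays labelled Bmi1. It read 37.3, 77.5, 71.8 and 144 on controls and 12.5, 45.7, 16.8 and 34.1 on Bmi1 arrays, lower in 4 of 4 pairs. The log2 difference was -1.54 (SE 0.44, 95% interval -2.53 to -0.56), with a limma adjusted p of 0.269 and 0.0202 with the block. Its second probe set read 20.7, 72.97, 46.6 and 81.3 on controls and 8.33, 17.9, 4.03 and 12.4 on Bmi1 arrays, a difference of -2.04 with a block adjusted p of 0.018 in limma over single probe sets. The call was lost, at adjusted p of 0.0592 to 0.0876, on leaving out control 1, Bmi1 1, control 3, control 4, Bmi1 3 or Bmi1 4.

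Bmper, a secreted protein that binds BMPs, read 95.6, 133, 25.9 and 37.1 on controls and 32.6, 37.97, 13.97 and 7.32 on Bmi1 arrays. It was lower in each pair, from higher levels on numbers 1 and 2, with a log2 difference of -1.52 (SE 0.60), and a limma adjusted p of 0.553 and 0.0202 with the block. The block adjusted p went to 0.0631 to 0.0775 on leaving out control 1, control 2, Bmi1 1, Bmi1 2, control 4 or Bmi1 4.

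**Figure D4:**
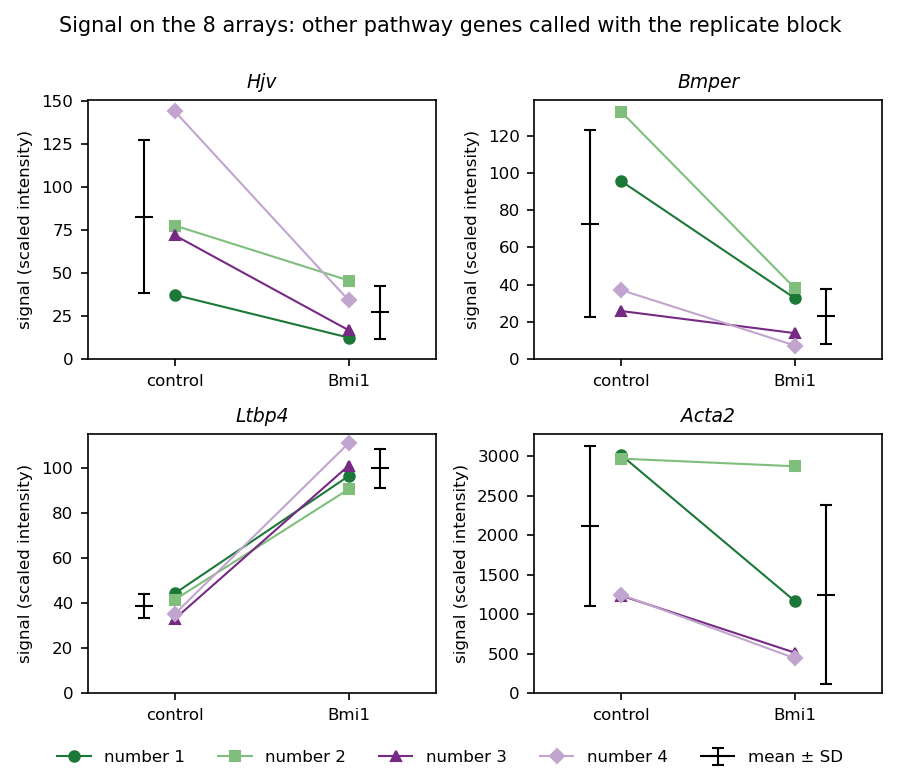
Signal (scaled intensity, linear axis from 0) on the 8 arrays of the 4 other pathway genes called with the replicate block, with lines joining arrays of the same number and bars for the group mean ± SD (n = 4). Hjv, Bmper and Acta2 are lower on Bmi1 arrays in every pair, and Ltbp4 is higher in every pair with no overlap of the groups.

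Of 20 listed target genes of TGF-beta, 18 were tested, and all 18 had a lower mean on the arrays labelled Bmi1, as had 5908 of all 10916 tested genes. The median log2 difference was -0.60, beside -0.03 for all genes, and 11 of 18 were lower in 4 of 4 pairs, against 15.8% of all tested genes. Acta2, smooth muscle actin, was the 1 called, with the block. It read 3013, 2969, 1237 and 1249 on controls and 1165, 2872, 514 and 444 on Bmi1 arrays, a log2 difference of -1.11 (SE 0.60, adjusted p in limma 0.78, 0.0405 with the block). That call was lost, at adjusted p of 0.115 to 0.152, without control 1, Bmi1 1, control 3, control 4, Bmi1 3 or Bmi1 4. It was also lost with centring on all probe sets (0.0554), without a level filter (0.0789), with the filter at the 60th percentile (0.057), without a trend (0.101) and with the mean of probe sets (0.23), where the difference was -0.46. With array weights and no block the difference was -0.38.

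Stellate cell and fibroblast markers went with this list in mean, with 12 of 13 tested markers lower in mean and a median of -0.98. With the block 1 of these was called lower, Acta2, and 1 higher, Reln, which read 75.1, 69.3, 263 and 57.4 on controls and 325, 176, 689 and 203 on Bmi1 arrays (log2 difference 1.55, limma adjusted p 0.0078 with the block). The lists share Col1a1, Col1a2, Col3a1, Acta2, Tagln and Postn, and without these the 12 remaining targets were all lower in mean, with a median of -0.46. The size depended on control 1: without it the median was -0.22 for all the targets, 15 of 17 being lower, and -0.18 for those not in the stellate list, 10 of 12 being lower. With array weights 9 of 18 were lower and the median was -0.05. Col1a2, a collagen of both lists, read 3343, 1290.2, 198 and 54.9 on controls and 173, 867, 146 and 174 on Bmi1 arrays, lower in 3 of 4 pairs. Ccn2, a direct TGF-beta target, read 3479, 3239.8, 2966 and 1917 on controls and 2717, 3212, 2903 and 913 on Bmi1 arrays, lower in 4 of 4 pairs, with a difference of -0.44 and limma adjusted p of 0.947. The part of the stellate markers in these values was not tested.

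BMP target genes other than the Id genes went both ways, with 4 of 7 tested higher in mean and 3 lower, with a median of 0.10. None was called in limma in either fit. Without a block 3 of 7 had an unadjusted p under 0.05, and with it 4 of 7. The counts over all 10916 tested genes were 852 and 1968. Hey1, a bHLH repressor, read 58.2, 112, 89.5 and 92.97 on controls and 167, 149, 165 and 172 on Bmi1 arrays, with no overlap. Its log2 difference was 0.82 (SE 0.20, adjusted p in limma 0.202, 0.0591 with the block), and it was called with the block under 4 of 18 other settings. Tbx3, a T-box factor of the growing hepatoblast, read 28.2, 31.8, 25.4 and 29.1 on controls and 46.3, 51.2, 54.4 and 41.6 on Bmi1 arrays, also without overlap, a difference of 0.61 (SE 0.20, adjusted p in limma 0.384, 0.151 with the block). Hamp, which encodes hepcidin, read 194, 595, 277 and 1639 on controls and 140.1, 464, 57.3 and 1192 on Bmi1 arrays, lower in 4 of 4 pairs, as Hjv was. The difference for Hamp was -0.94 (SE 0.92), with a limma adjusted p of 0.947 and 0.151 with the block, and it was named after its values were seen.

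**Figure D5:**
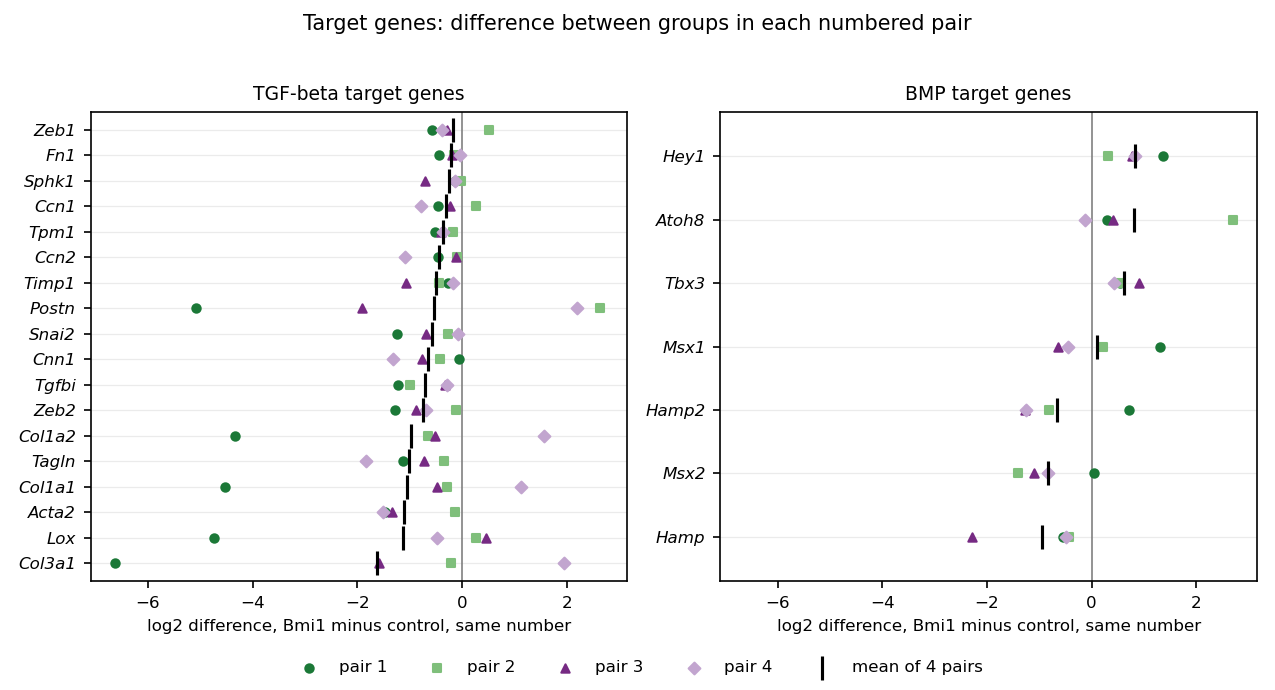
Log2 difference in the 4 pairs for the tested TGF-beta target genes and BMP target genes, with single pairs as points and their mean as a black bar. All 18 TGF-beta targets have a mean below 0, with pair 1 of the collagens and Lox far to the left, while BMP targets lie on both sides.

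The remaining genes named by the rule had small or uneven differences. Bmp8a and Bmp8b, further BMP ligands, had -0.16 and 0.87 on the log2 scale, the latter higher in 2 of 4 pairs. Fkbp1a, which binds type I receptors, had -0.17 and was lower in 4 of 4 pairs after centring on the tested genes. The corepressor Tgif2 had 0.36. Their limma adjusted p without a block ran from 0.799 to 0.978.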

How the data were processed

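Signals of 45101 probe sets on 8 Affymetrix mouse arrays are intensities as deposited by the authors, on a linear scale, from software not given in the sources used here. The mean of each array after trimming 2% at each end was 100, so a global scaling is in the values, and the number of arrays limits the precision. Symbols came from the platform annotation: 34945 probe sets had 1 symbol, 932 several, 9160 are unnamed here and 64 were controls.

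Each intensity became log2(value + 3.78), with 3.78 equal to the overall median over 4; this understates the folds of dim genes. Arrays were centred on the median of the tested genes. The probe set of highest mean stood for a gene, and a gene was tested if its mean level reached percentile 40, which held for 10916 of 18193. The comparison used lmFit and eBayes with trend of limma 3.58.1 (R 4.3.3), and tables were made with Python 3.11.15. The code was checked on simulated data. Background was the 95th percentile of 27 Bacillus control probe sets on each array, 4.09 to 9.97.

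Deviations from the group means correlated at 0.49 to 0.68 between arrays of the same number, and all 8 arrays correlated best with their own number. With the 4 independent experiments of the series, the numbers were taken to pair the arrays; the difference between numbers 1 and 2 and numbers 3 and 4 adds to these correlations. The model without a block is the main one. The p-values measure the spread between these cultures, and the litters behind them are not known here. In the comparison between numbers, arrays of the same number were treated as independent.

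Values on all arrays are given for members called in either model and, in each branch, for the 3 of smallest p. Of each other list, called genes or the 2 of smallest p are named; further members, Col1a2, Ccn2 and Hamp were named by role or after their values were seen. The members and lists were chosen with earlier results of these data known. Other settings were the added constant, centring, quantile normalisation, the filter, the mean of probe sets, array weights, no trend, each block, and each array left out.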

Additional observations from a re-analysis of the deposited data

How the results depend on the processing

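Without a block, 0 members were called in all settings run, and with the replicate block 0 in all but 2: centring on all probe sets called 3 (Inhbb, Bmp7 and Id1) and array weights 1 (Inhbb). Leaving out single arrays gave 0 in both models. The median of the members, 0.035 as reported, was 0.17 with centring on all probe sets, 0.13 with quantile normalisation, 0.21 with array weights, and -0.023 to 0.19 on leaving out single arrays. The sign of the difference was the same in every other setting without a block in which the gene was tested, 16 to 18 of them, for 16 members and turned in at least 1 for 23.

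Among other pathway genes, the count without a block was 0 as reported and 4 with the replicate block; it was 1 (Ltbp4) with the median as constant, no centring, quantile normalisation, the mean of probe sets, array weights or no trend, and 2 (Bmper and Ltbp4) with numbers 1 and 2 against 3 and 4 as a block. The count of 4 with the replicate block was 2 with that coarser block, and 0 to 3 on leaving out single arrays. With the filter at the 60th percentile it was 0 of the 39 genes still tested. Hjv, Bmper and Ltbp4 were not tested at that filter, and Acta2 had a limma adjusted p of 0.057. Array weights moved the median of all other pathway genes to 0.038, that of the TGF-beta targets to -0.050 with or without the stellate genes, and that of the Smad regulators to -0.023. The Smad regulators had -0.017 without centring and 0.043 with centring on all probe sets, other ligands -0.16 without a filter, and other receptors 0.18 with the stricter filter. On leaving out single arrays the medians ran from -0.33 to -0.10 for all other pathway genes, -0.37 to 0.20 for other receptors, -0.97 to -0.22 for the TGF-beta targets and -0.60 to -0.18 for those not in the stellate list.

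Signs turned for Tgfbr1 (0.12), Ltbp3 (0.043), Smad4 (0.082), Smad7 (0.28), Bambi (-0.071) and Bmp8a (0.041) with array weights. Smad7 also turned without centring (0.0029), with centring on all probe sets (0.063) and with the mean of probe sets (0.013), in both models. On leaving out single arrays Smad7 ran from -0.30 to 0.092 without a block and from -0.24 to 0.040 with the replicate block, and Bmp8a from -0.32 to 0.011. The causes were not tested. The settings for the difference between numbers and for the direction within pairs, and the target list without stellate genes, were chosen after seeing the data; the 16 calls between numbers became 13 to 17 on leaving out single arrays and 14 to 20 in the other settings. The replicate block changed the call for Hjv (adjusted p 0.0202), Bmper (0.0202), Ltbp4 (0.0165) and Acta2 (0.0405) in limma and for no other named pathway gene; it also changed that of Bmi1 itself and of the markers Msln, Egfl7 and Reln. Dim members such as Tgfb1 and Ltbp2, near background on some arrays, have differences that the added constant shrinks.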
